A study of Saccharomyces cerevisiae with 4 samples.

Results

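Genes of protein disaggregation, sorting and folding were followed through 4 single-cell libraries of Saccharomyces cerevisiae. They were picked by name, with earlier results of these data known, and make up 9 of the 4777 genes in the count matrix: HSP104, HSP78, HSP42, HSP26, BTN2, CUR1, SIS1, YDJ1 and MDJ1. Their levels are therefore given as a description, and no test was run on them. All cells were haploid BY4741 cells (MATa his3Δ1 leu2Δ0 met15Δ0 ura3Δ0), grown for 18 h in minimal medium with 2% glucose. The 4 conditions were MPA + Guanine (10 µM of each, with DMSO), MPA (10 µM, with DMSO), Guanine (10 µM) and DMSO (10 µM). Mycophenolic acid (MPA) inhibits IMP dehydrogenase, an enzyme of GMP synthesis, and added guanine can feed the pathway downstream of the block. As the methods describe the media, the Guanine cells received no DMSO, so that for the Guanine library the guanine and the missing DMSO cannot be told apart.

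Misfolded proteins that are not refolded at once gather in aggregates or in a few dedicated deposits of the cell. Small heat shock proteins bind unfolding proteins and set the form of such deposits, sorting factors decide where they are placed, and disaggregases pull single chains out of them again. J-domain proteins deliver substrates to Hsp70 and switch on its ATPase, and the disaggregases work together with Hsp70 and J-domain proteins. In yeast, many of these genes are switched on by the heat shock factor Hsf1, whose binding site, the heat shock element, is a row of GAA triplets and their reverse complement TTC in alternation. A further set of stress genes is switched on by Msn2 and Msn4 through the stress response element.

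The libraries held 279806 UMIs in 268 MPA + Guanine cells, 102788 in 85 MPA cells, 216768 in 258 Guanine cells and 311199 in 233 DMSO cells. A UMI (unique molecular identifier) marks 1 captured mRNA molecule. Median UMIs per cell were 957 for MPA + Guanine, 1165 for MPA, 749.5 for Guanine and 1250 for DMSO, and 0 barcodes were found in more than 1 library. Within a library, the matrix holds no gene whose highest cell has a single UMI, so that a gene listed at 0 may have had single UMIs and is written here as listed at 0, with no fold against it. Ribosomal protein genes took 18.9% of the UMIs in MPA + Guanine, against 30.5% in MPA, 36.2% in Guanine and 33.2% in DMSO, and the part of this difference in the levels below was tested only by leaving those genes out of the totals. Of the genes that mark MATa cells, 5 of 5 had UMIs in at least 1 library. MFA2 had 8 UMIs in DMSO and was listed at 0 in MPA + Guanine, MPA and Guanine, and BAR1 was listed at 0 in Guanine. HIS3, of which his3Δ1 is a partial deletion, was at 379 CPM (UMIs per 1000000 UMIs of the library) in MPA + Guanine, 272 in MPA, 946 in Guanine and 247 in DMSO. With 1 library per condition, nothing is known of the spread between cultures: all intervals are exact 95% intervals that cover counting error only.

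The upstream sequence of the members is shown because the members differ in their exact matches to the heat shock element. Imperfect matches were not counted. Heat shock genes were among the names chosen, and many such genes are switched on by Hsf1. The share of members with heat shock elements is therefore not independent of the choice. In the 500 bases before the start codon, a run of at least 3 heat shock element units (GAANNTTCNNGAA, or TTCNNGAANNTTC on the other strand) was found in 5 of the 9 members, and in 1.48% of 6000 protein-coding genes. Each line below holds 30 bases, 5′ to 3′ on the strand of the gene, with the units in capitals.
HSP104: atatttTTCcaGAAttTTCtaGAAgggtta
HSP78: gttattTTCcaGAAtgTTCtaGAAgtgttc
HSP42: taaaagTTCtgGAAggTTCgcGAAttgaga
BTN2: ttttttTTCtaGAAagTTCcgGAAaattgc
SIS1: tatGAAcgTTCcaGAAacTTCtgGAAaaag
The run had 4 units in HSP104, HSP78, HSP42 and BTN2 and 5 units in SIS1. In HSP26, CUR1 and YDJ1 the window held 1 pair of units (GAANNTTC or TTCNNGAA), a pattern found in 35.2% of all such windows, and the MDJ1 window held none.
HSP26: cattgcttgatTTCtaGAAagatcgatggt
CUR1: tagaaaaaaggGAActTTCctactcaaaag
YDJ1: ttcatttctttTTCaaGAAatgaaaaggca
The windows lie in the R64 assembly at chrXII:88315-88344 (plus strand) for HSP104, chrIV:974467-974496 (minus) for HSP78, chrIV:806372-806401 (plus) for HSP42, chrVII:772104-772133 (plus) for BTN2, chrXIV:619883-619912 (minus) for SIS1, chrII:381665-381694 (plus) for HSP26, chrXVI:843063-843092 (plus) for CUR1 and chrXIV:507414-507443 (minus) for YDJ1. The run began 302 bases before the start codon in HSP104, 247 in HSP78, 243 in HSP42 and 344 in both BTN2 and SIS1. The stress response element (AGGGG, or CCCCT on the other strand), present in 34.1% of all windows, was found 3 times each in HSP104, HSP78, HSP42 and HSP26, 2 times in MDJ1, and not in BTN2, CUR1, SIS1 or YDJ1. Sequences and gene positions are from the RefSeq entry of the assembly. A match of letters is a description and not evidence of binding. No member overlapped another annotated gene, and none had a near-identical copy elsewhere in the genome.

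HSP104 (YLL026W, chromosome XII, 88623 to 91349) encodes the hexameric disaggregase of the cytosol and nucleus, which threads aggregated proteins through its central pore. It was at 583 CPM (497 to 679) in MPA + Guanine, 379 (270 to 519) in MPA, 101 (63.6 to 154) in Guanine and 196 (150 to 252) in DMSO. The order was therefore MPA + Guanine, MPA, DMSO and Guanine, in which the intervals of neighbours overlapped at both ends of the order and MPA lay above DMSO. HSP78 (YDR258C, chromosome IV, 971808 to 974243), its relative in the mitochondrial matrix, had 138 UMIs or 493 CPM (414 to 583) in MPA + Guanine, 24 UMIs or 233 CPM (150 to 347) in MPA and 32 UMIs or 103 CPM (70.3 to 145) in DMSO, and was listed at 0 in the 258 Guanine cells. The intervals of the 3 libraries with UMIs did not overlap. Over DMSO, MPA + Guanine was 2.97-fold (2.20 to 4.06) higher for HSP104 and 4.80-fold (3.25 to 7.28) higher for HSP78.

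HSP42 (YDR171W, chromosome IV, 806621 to 807748) encodes the small heat shock protein that is active in unstressed cells and gathers misfolded proteins in peripheral deposits. It was at 1469 CPM (1330 to 1618) in MPA + Guanine, 876 (704 to 1076) in MPA, 111 (70.9 to 165) in Guanine and 222 (173 to 281) in DMSO. The intervals of all 4 libraries were apart, and both libraries with MPA lay above both without it. Of the members with a ratio, HSP42 had the largest over DMSO, both in MPA + Guanine (6.62-fold, 5.12 to 8.68) and in MPA alone (3.95-fold, 2.85 to 5.48). HSP26 (YBR072W, chromosome II, 382030 to 382674), the small heat shock protein that forms a storage oligomer and opens on heating, had 9 UMIs in 6 of the 268 MPA + Guanine cells, 66.7% of them in 3 cells, and was listed at 0 in MPA, Guanine and DMSO. In those 6 cells the other 8 members took a median of 1.60% of the cell's UMIs (0.531 to 2.96), against 0.611% (0 to 4.70) in the 262 cells without HSP26. Median UMIs per cell were 1251.5 in the 6 cells and 951.5 in the 262, and the part of depth in this difference was not tested.

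BTN2 (YGR142W, chromosome VII, 772454 to 773686) encodes a sorting factor that sequesters misfolded proteins in nuclear and cytosolic deposits. It had 864 UMIs or 3088 CPM (2885 to 3301) in MPA + Guanine, 180 UMIs or 1751 CPM (1505 to 2027) in MPA, 45 UMIs or 208 CPM (151 to 278) in Guanine and 300 UMIs or 964 CPM (858 to 1080) in DMSO. The 4 libraries were again apart, with Guanine at the bottom. BTN2 gave 35.8% of the UMIs of the 9 members in MPA + Guanine, 32.6% in MPA, 16.1% in Guanine and 32.4% in DMSO. CUR1 (YPR158W, chromosome XVI, 843262 to 844020), a paralog of BTN2 that directs such proteins and the J-domain protein Sis1 to the nucleus, was at 622 CPM (533 to 721) in MPA + Guanine, 272 (181 to 394) in MPA, 101 (63.6 to 154) in Guanine and 350 (288 to 423) in DMSO. Here MPA stood below DMSO, with overlapping intervals and a log2 ratio of -0.36 (-1.02 to 0.25), while MPA + Guanine stood above both and Guanine below all. The paralogs thus had the same order at the ends and a different one for MPA against DMSO.

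SIS1 (YNL007C, chromosome XIV, 618507 to 619565) encodes an essential J-domain partner of Hsp70 that acts on aggregates and prions. It was at 1580 CPM (1436 to 1734) in MPA + Guanine, 1109 (915 to 1332) in MPA, 378 (301 to 470) in Guanine and 675 (587 to 773) in DMSO, with all 4 intervals apart. YDJ1 (YNL064C, chromosome XIV, 505868 to 507097), the general J-domain protein of the cytosol, was at 382 CPM (313 to 462) in MPA + Guanine, 409 (294 to 552) in MPA, 217 (159 to 288) in Guanine and 292 (235 to 359) in DMSO. Its DMSO interval overlapped those of all other libraries. MDJ1 (YFL016C, chromosome VI, 104701 to 106236), the J-domain protein of the mitochondrial matrix, was at 386 CPM (317 to 466) in MPA + Guanine, 341 (237 to 474) in MPA, 175 (124 to 241) in Guanine and 170 (128 to 223) in DMSO. MPA + Guanine and MPA were close to each other, and so were Guanine and DMSO.

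**Figure D1:**
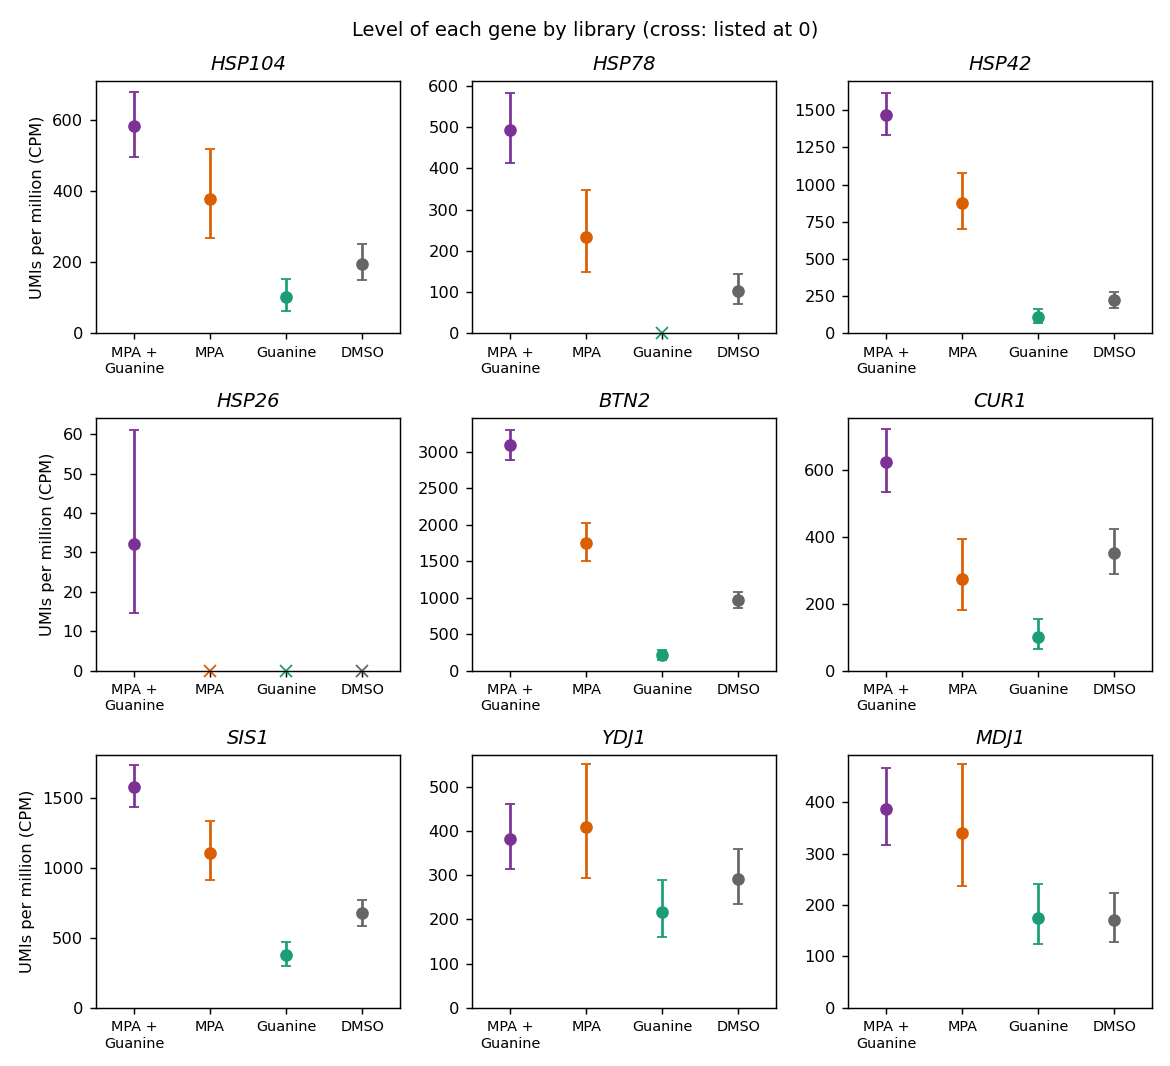
CPM of each of the 9 genes (vertical axes, linear, from 0, a scale of its own per panel) in the 4 libraries; points are library sums, bars are exact 95% Poisson intervals and crosses mark genes listed at 0. BTN2 was at 3088 CPM in MPA + Guanine and 208 in Guanine, while the YDJ1 levels lay between 217 and 409 CPM.

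For both agents together against the solvent, 6 of the 8 members with a ratio were at least 2-fold higher in MPA + Guanine than in DMSO and 0 were at least 2-fold lower, beside 9.44% higher and 2.55% lower of 2351 genes. The 6 were HSP42, HSP78, BTN2, HSP104, SIS1 and MDJ1, with log2 ratios of 2.73, 2.26, 1.68, 1.57, 1.23 and 1.18. CUR1 (0.83, 0.47 to 1.19) and YDJ1 (0.39, -0.03 to 0.81) were below that size. The summed members took 0.863% of the UMIs in MPA + Guanine, against 0.297% in DMSO, a log2 ratio of 1.54 (1.43 to 1.65), and the median of the members was 1.40, beside 0.26 for all genes. With TMM scaling 5 members remained past 2-fold (MDJ1 was at 0.98), and with totals without ribosomal protein genes 4 (SIS1 was at 0.95 and MDJ1 at 0.90). The members with and without a run of 3 or more heat shock element units were also set side by side. In MPA + Guanine over DMSO the 5 with a run had log2 ratios of 1.23 to 2.73 and the 3 others with a ratio 0.39 to 1.18, where SIS1 (1.23, 0.99 to 1.47) and MDJ1 (1.18, 0.69 to 1.68) had overlapping intervals. In the other 4 comparisons the ranges of the 2 sets overlapped: MDJ1 without a run was above HSP104, BTN2 and SIS1 in MPA over DMSO, CUR1 without a run was the highest member in MPA + Guanine over MPA, and CUR1 was second to BTN2 at the low end in Guanine over DMSO and above HSP104 and SIS1 in MPA + Guanine over Guanine.

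For MPA alone against DMSO, 2 members were at least 2-fold higher, HSP42 (1.98, 1.51 to 2.46) and HSP78 (1.18, 0.36 to 1.99), beside 8.09% of 1866 genes, and 0 were at least 2-fold lower, beside 3.8%. MDJ1 was just outside at 0.9995 and HSP104 followed at 0.95 (0.33 to 1.56). The other log2 ratios were 0.86 for BTN2, 0.72 for SIS1, 0.48 for YDJ1 and -0.36 for CUR1. The summed log2 ratio was 0.85 (0.70 to 1.01), with a median over 8 members of 0.91, beside 0.18 for all genes.

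For guanine alone against DMSO, 3 members were at least 2-fold lower in Guanine, BTN2 (-2.22, -2.70 to -1.76), CUR1 (-1.79, -2.52 to -1.12) and HSP42 (-1.002, just past the limit), beside 5.01% of 2115 genes. None was at least 2-fold higher (0 of 7), beside 9.13%. HSP104 (-0.95), SIS1 (-0.84) and YDJ1 (-0.43) were lower by less, and MDJ1 was at 0.04 (-0.60 to 0.67). The summed members took 0.129% of the UMIs in Guanine and 0.297% in DMSO, a log2 ratio of -1.20 (-1.40 to -1.01). HSP78 entered this sum as 0 in Guanine and with 32 UMIs in DMSO. The lowest log2 ratio of the members was that of BTN2, which lay at the 0.189 percentile of all genes in this comparison.

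MPA + Guanine was also set against each agent on its own. Over MPA, CUR1 (1.19, 0.61 to 1.82) and HSP78 (1.08, 0.45 to 1.77) were at least 2-fold higher, 2 of 8 members beside 9.78% of 1881 genes. BTN2 (0.82), HSP42 (0.75), HSP104 (0.62) and SIS1 (0.51) were higher by less, and the intervals of MDJ1 (0.18) and YDJ1 (-0.10) held 0. Over Guanine, 6 of 7 members were at least 2-fold higher, beside 14.9% of 2130 genes, in the order BTN2 (3.89, 3.46 to 4.36), HSP42 (3.73, 3.14 to 4.39), CUR1 (2.62, 1.97 to 3.33), HSP104 (2.52, 1.87 to 3.23), SIS1 (2.06, 1.72 to 2.42) and MDJ1 (1.14, 0.59 to 1.71). YDJ1 was at 0.82 (0.31 to 1.35). In both comparisons 0 members were at least 2-fold lower, beside 8.67% of the genes over MPA and 8.36% over Guanine. The comparisons share libraries, DMSO in 3 of them and MPA + Guanine in 3, and are not independent of each other.

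Set against the other 3 libraries pooled, MPA + Guanine was at least 2-fold higher for 6 of 8 members (background 16%) and lower for 0 (3.36%), and the lowest log2 ratio was that of YDJ1 (0.42). MPA was past 2-fold for 0 of 8 members in either direction, with 8.76% of all genes higher and 6.4% lower. Guanine was at least 2-fold lower for 5 of 7 members (background 8.93%) and higher for 0 (8.38%). BTN2 had the lowest log2 ratio there, -3.22 (-3.68 to -2.79), and HSP42 followed at -2.89 (-3.55 to -2.30). The pooled comparators hold different libraries, so that the 3 values of a gene are not on 1 scale.

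**Figure D2:**
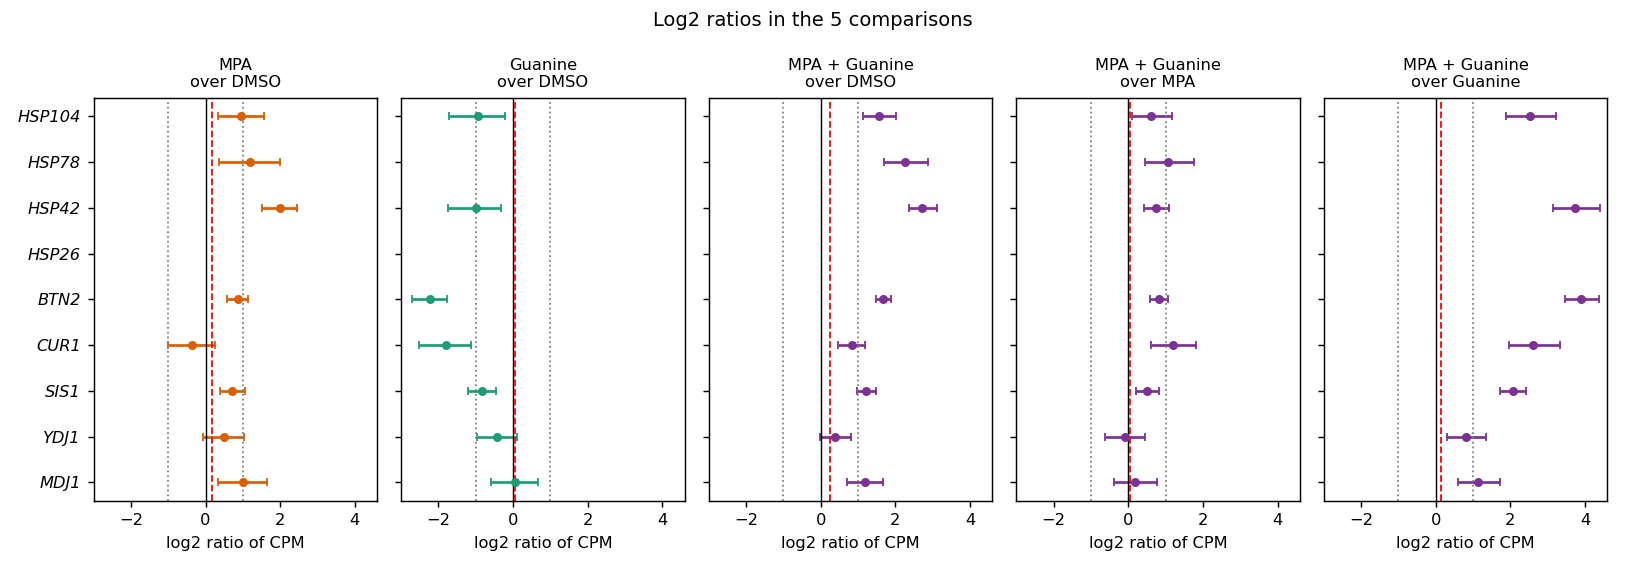
Log2 ratio of CPM (horizontal axes) of each gene in the 5 comparisons, with exact 95% intervals of counting error; dotted lines mark 2-fold either way, the dashed red line the median of all genes, and genes listed at 0 in either library have no point. In MPA + Guanine over Guanine BTN2 stood at 3.89 and HSP42 at 3.73, and YDJ1 was the lowest point there at 0.82.

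The scale of the ratios depended on the totals used. With TMM scaling, which sets the bulk of genes to no change, the median of all genes moved from 0.18 to -0.03 in MPA over DMSO and from 0.26 to 0.05 in MPA + Guanine over DMSO. The share of all genes at least 2-fold higher and lower became 4.56% and 5.95% in MPA over DMSO, 5.57% and 6.08% in MPA + Guanine over DMSO and 10.4% and 12.3% in MPA + Guanine over Guanine. With totals that leave out ribosomal protein genes, these shares were 4.55% and 8.08% in MPA + Guanine over DMSO, 6.22% and 14.2% in MPA + Guanine over MPA, 7.28% and 16.4% in MPA + Guanine over Guanine and 11.1% and 3.64% in Guanine over DMSO. A change of totals shifts all log2 ratios of a comparison by 1 constant, so that the distance between the median of the members and that of all genes is fixed by construction: 0.73 in MPA over DMSO, -1.004 in Guanine over DMSO, 1.14 in MPA + Guanine over DMSO, 0.65 in MPA + Guanine over MPA and 2.37 in MPA + Guanine over Guanine. The calls near the limit depended on the scaling. In MPA over DMSO, HSP78 was under 2-fold with TMM (0.98). In MPA + Guanine over DMSO, MDJ1 was under it with TMM (0.98), and SIS1 (0.95) and MDJ1 (0.90) without the ribosomal protein genes. In MPA + Guanine over MPA, HSP78 (0.86) and CUR1 (0.97) were under it without the ribosomal protein genes. In MPA + Guanine over Guanine, MDJ1 was under it with both (0.95 with TMM and 0.79 without the ribosomal protein genes), and in Guanine over DMSO HSP42 was within the limit at -0.94 without the ribosomal protein genes.

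The log2 ratio for guanine was at least 1 higher with MPA than without for 5 of 7 members, beside 13.3% of 1641 genes. In these 5 members it was above 0 with MPA and below 0 without. The share of all genes with such opposite signs was not computed. For BTN2, guanine gave a log2 ratio of 0.82 in the presence of MPA and -2.22 in its absence, a difference of 3.03 (2.53 to 3.54). For CUR1 the values were 1.19 with MPA and -1.79 without, a difference of 2.98 (2.10 to 3.85). HSP42, HSP104 and SIS1 had differences of 1.75, 1.57 and 1.35, and the intervals of these 3 also lay above 0. The J-domain genes YDJ1 (0.34, -0.39 to 1.06) and MDJ1 (0.14, -0.68 to 0.95) had intervals that held 0. Among 1641 genes with UMIs in all libraries the median difference was 0.01, and 13.3% were at 1 or above. These intervals are large-sample intervals of counting error, and the difference was not tested over cultures. The media without MPA also differed in DMSO, as given above.

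**Figure D3:**
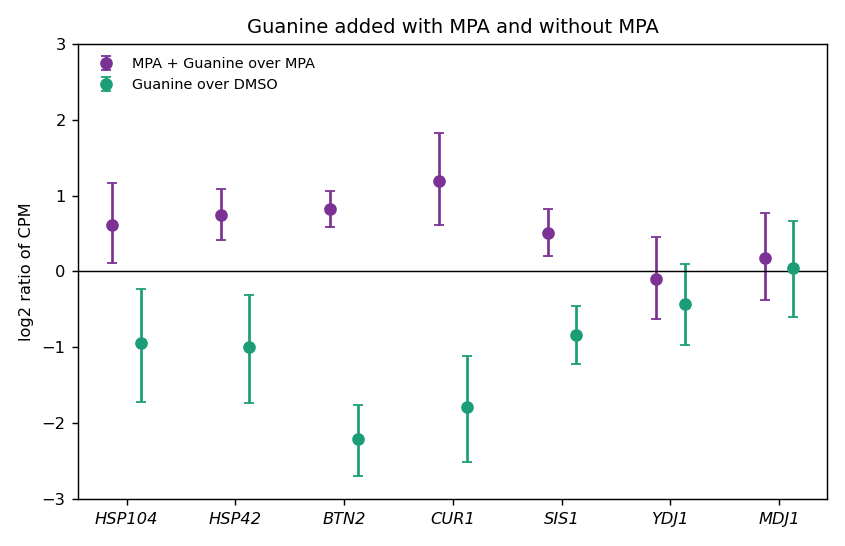
Log2 ratio of CPM for guanine added with MPA (MPA + Guanine over MPA, left point of each pair) and without MPA (Guanine over DMSO, right point), for the 7 genes with UMIs in all libraries; bars are exact 95% intervals of counting error. BTN2 was at 0.82 with MPA and -2.22 without, and for MDJ1 the points were at 0.18 and 0.04.

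The members were next followed in single cells. BTN2 had a UMI in 70.5% of MPA + Guanine cells (64.7 to 75.9), 75.3% of MPA cells (64.7 to 84.0), 10.9% of Guanine cells (7.33 to 15.3) and 47.6% of DMSO cells (41.1 to 54.3). After all cells were thinned to 400 UMIs, with 13 MPA + Guanine, 0 MPA, 33 Guanine and 4 DMSO cells left out as too shallow, the shares for BTN2 were 51.0% in MPA + Guanine, 45.9% in MPA, 7.56% in Guanine and 26.2% in DMSO. For HSP42 the thinned shares were 31.8% in MPA + Guanine, 18.8% in MPA, 6.67% in Guanine and 9.17% in DMSO, and for HSP104 they were 21.6% in MPA + Guanine, 17.6% in MPA, 3.11% in Guanine and 7.42% in DMSO. The thinned shares of MPA + Guanine and MPA were closer to each other for BTN2 and HSP104 than for HSP42. For HSP42 their thinned intervals still overlapped (26.1 to 37.9 in MPA + Guanine and 11.2 to 28.8 in MPA). Without thinning, HSP42 had a UMI in 51.9% of MPA + Guanine cells and 54.1% of MPA cells. All cells were of 1 strain, so that no cell type lacking these genes could give the share expected from free RNA, and its part in the shares was not tested.

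Thinned MPA + Guanine cells held UMIs of a mean of 2.07 members, against 1.61 in MPA, 0.507 in Guanine and 0.961 in DMSO. Cells with 3 or more members made up 34.9% in MPA + Guanine, 25.9% in MPA, 3.11% in Guanine and 9.17% in DMSO, and cells with none made up 16.5% in MPA + Guanine, 22.4% in MPA, 63.1% in Guanine and 41.0% in DMSO. Without thinning the means were 3.53 in MPA + Guanine, 3.44 in MPA, 0.880 in Guanine and 2.25 in DMSO. The summed members took a median of 0.619% of a cell's UMIs in MPA + Guanine (highest cell 4.70%), 0.512% in MPA (1.72%), 0.0648% in Guanine (0.775%) and 0.222% in DMSO (1.34%). The upper tail of MPA + Guanine therefore reached beyond every cell of the other 3 libraries.

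**Figure D4:**
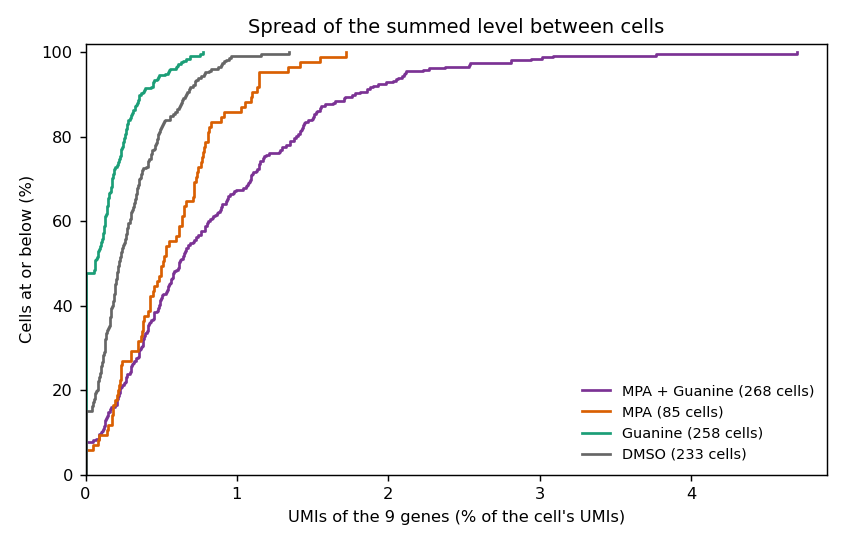
Share of cells (vertical axis, %) whose UMIs of the 9 genes make up at most the given percent of all UMIs of the cell (horizontal axis), with 1 step line per library. The Guanine line starts at 47.7% of cells with no UMI of these genes, and the MPA + Guanine line reaches its end at 4.70%.

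Of the members, BTN2 and HSP42 had the highest variance ratios between cells of the MPA + Guanine library. A gene whose counts varied only with the depth of the cells would have a variance ratio of 1. In MPA + Guanine the ratio was 4.42 for BTN2 and 2.48 for HSP42, with 14 and 42 of 538 genes above them, against a median of 1.36. It was 1.74 for HSP104, 1.53 for HSP78 and 1.49 for SIS1, and 1.33, 1.29 and 1.13 for CUR1, YDJ1 and MDJ1, which lay below the median. At the same relative spread between cells, this ratio is higher for a gene with more UMIs. Mean UMIs per cell were 3.22 for BTN2, 1.65 for SIS1, 1.53 for HSP42 and 0.608 for HSP104. The 538 genes were not matched for level, so the ranks do not compare relative spread. BTN2 also had 2.80 in MPA (10 of 203 genes above it) and 2.16 in DMSO (40 of 518). The highest single cell held 32 UMIs of BTN2, in MPA + Guanine, and 10 in MPA, 4 in Guanine and 10 in DMSO. The level was not carried by a few cells, since the 3 highest cells held 9.38% of the BTN2 UMIs in MPA + Guanine.

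In thinned MPA + Guanine cells, the share with other members was set against the presence of BTN2. HSP42 was detected in 41.5% (33.0 to 50.5) of the 130 cells with BTN2, against 21.6% (14.7 to 29.8) of the 125 cells without it. HSP104 was detected in 39 of the cells with BTN2 (30%, 22.3 to 38.7) and 16 of the cells without (12.8%, 7.50 to 19.95), and HSP78 in 24.6% (17.5 to 32.9) of cells with BTN2 and 10.4% (5.65 to 17.1) of cells without. The intervals of these 3 pairs did not overlap. For SIS1 the shares were 46.9% (38.1 to 55.9) with BTN2 and 36.8% (28.4 to 45.9) without, with overlapping intervals. In the other libraries the pairs with BTN2 had overlapping intervals. In DMSO, HSP42 was detected in 16.7% (8.29 to 28.5) of the 60 cells with BTN2 and 6.51% (3.29 to 11.3) of the 169 without, and HSP78 in 3 of the cells with BTN2 (5%, 1.04 to 13.9) and 9 of the cells without (5.33%, 2.46 to 9.87). In MPA, HSP42 was at 28.2% (15 to 44.9) in the 39 cells with BTN2 and 10.9% (3.62 to 23.6) in the 46 without. HSP78 was at 10.3% (2.87 to 24.2) with BTN2 and 10.9% (3.62 to 23.6) without. In Guanine, HSP42 was at 23.5% (6.81 to 49.9) in the 17 cells with BTN2 and 5.29% (2.67 to 9.27) in the 208 without. In all of these libraries HSP42, HSP104 and SIS1 had higher shares with BTN2, while HSP78 was slightly lower in MPA and DMSO. Fewer cells held BTN2 there than in MPA + Guanine, so the overlaps do not show that co-detection was absent. Cells share their library and are not replicates, so these shares describe it.

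The deposited SC3 labels divide the libraries into 8 subclusters, which were found from the same counts and are used here to describe, not to test. The subclusters MG.1 (166 cells) and MG.2 (77 cells) of MPA + Guanine had nearly the same summed level, 8871 CPM (8456 to 9300) and 8829 (8145 to 9556), but were made up differently. MG.2 was higher in both disaggregases, with HSP104 at 904 CPM (695 to 1157), against 470 (378 to 577) in MG.1, and HSP78 at 747 CPM (558 to 979), against 408 (323 to 508). MG.1 was higher in HSP42, with 1677 CPM (1500 to 1870), against 1091 (860 to 1366) in MG.2, and the intervals of BTN2 overlapped, at 3153 CPM in MG.1 and 3245 in MG.2. The third subcluster, MG.3 (25 cells), was at 5009 CPM (3983 to 6217). It held 15 of the 16 cells of its library in which a single gene had over 10% of the UMIs, and leaving it out gave a summed log2 ratio over DMSO of 1.58, against 1.54 with it. MPA formed 1 subcluster at 5370 CPM. Guanine.1 and Guanine.2 were at 1390 (1165 to 1646) and 1213 (1024 to 1426), and DMSO.1 and DMSO.2 at 3046 (2832 to 3273) and 2698 (2316 to 3125). HSP78 was listed at 0 in both Guanine subclusters.

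**Figure D5:**
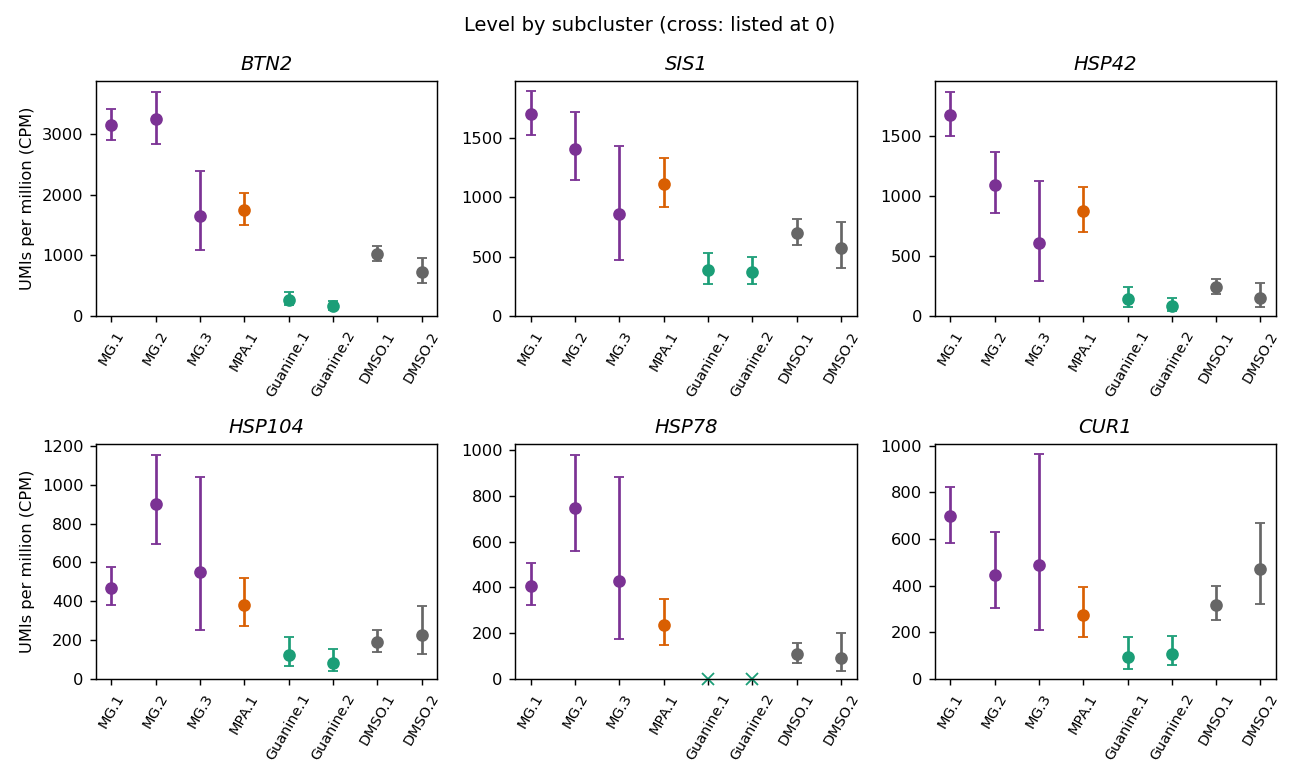
CPM of 6 of the genes (vertical axes, linear, from 0) in the 8 subclusters, coloured by library, with exact 95% Poisson intervals; crosses mark genes listed at 0. HSP104 and HSP78 were higher in MG.2 (904 and 747 CPM) than in MG.1 (470 and 408), and HSP42 was higher in MG.1.

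The SC3 clusters made over all cells (k = 4) cut the MPA + Guanine library along another line. Its 146 cells in cluster 4 were at 11387 CPM (10873 to 11918) for the summed members, against 2891 (2360 to 3507) in its 34 cells in cluster 1. BTN2 was at 4215 CPM in the 146 cells and at 730 in the 34 cells, and HSP42 was at 2074 CPM in the 146 cells and at 477 in the 34 cells. Its 60 cells in cluster 3 were at 5705 CPM (5100 to 6362) and its 28 cells in cluster 2 at 5679 (4792 to 6682). In the sum, the cluster 1 cells were near the DMSO library at 2972 CPM (2784 to 3170). Of single members, HSP42 was at 477 CPM (278 to 764) in the cluster 1 cells, on 17 UMIs, against 222 (173 to 281) in DMSO. HSP78 was at 28.1 CPM (0.711 to 156) in the cluster 1 cells, on 1 UMI, against 103 (70.3 to 145) in DMSO. For both genes the intervals overlapped. The DMSO library also differed by cluster, with 16 cells in cluster 3 at 5660 CPM (4810 to 6618) for the summed members. Its 175 cells in cluster 1 were at 2735 (2528 to 2954) and its 34 in cluster 2 at 2786 (2292 to 3355). The 80 MPA cells in cluster 3 were at 5342 (4890 to 5824). Guanine cells in clusters 1 and 2 were at 1232 and 1214. The genes counted here were among those clustered, and their part in the clusters was not tested.

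Of 59 other folding and stress genes in a list chosen by function, 35 had a ratio in MPA + Guanine over DMSO, with a median of 0.69, and 8 were at least 2-fold higher (background 9.44%) and 0 lower (2.55%). They were HSP12 (3.99), a membrane-bound stress protein, SSA4 (3.55), the stress-inducible Hsp70, HSP82 (1.58), the inducible Hsp90, KAR2 (1.17), the Hsp70 of the endoplasmic reticulum, the Hsp90 cochaperones STI1 (1.14) and CPR6 (1.10), HSF1 (1.03), the heat shock factor, and HSP31 (1.15). SSA4 was at 754 CPM in MPA + Guanine, 243 in MPA, 23.1 in Guanine and 64.3 in DMSO. With TMM scaling 3 of the 35 were at least 2-fold higher (HSP12, SSA4 and HSP82), beside 5.57% of all genes. SSB2 was then at least 2-fold lower, 1 of the 35 beside 6.08%. With totals without ribosomal protein genes, the same 3 were higher, beside 4.55%, and 2 were lower (SSB2 and JJJ1), beside 8.08%. In MPA over DMSO 7 of 33 were at least 2-fold higher, beside 8.09% of all genes (SSA4 1.92, STI1 1.61, ZUO1 1.21, SCJ1 1.21, HSP82 1.19, CDC37 1.16 and HSP12 1.01), and 0 lower, beside 3.8%. Some of these ratios rest on few UMIs: 8 in MPA and 12 in DMSO for HSP12, 17 and 23 for CDC37, and 25 and 20 for SSA4. With TMM scaling 4 of the 33 were at least 2-fold higher (SSA4, STI1, ZUO1 and SCJ1), beside 4.56% of all genes. In Guanine over DMSO 3 of 34 were at least 2-fold lower, beside 5.01% (SSA4 -1.48, KAR2 -1.41 and HSP82 -1.26), and 2 higher, beside 9.13% (HSP12 1.46 and CDC37 1.04). The counts were again low for SSA4 (5 UMIs in Guanine and 20 in DMSO), HSP12 (23 and 12) and CDC37 (33 and 23). Over MPA, MPA + Guanine was at least 2-fold higher for 5 of 33, beside 9.78% (HSP12, SSA4, SSA1, HSF1 and AHA1), and lower for 2, beside 8.67%, ZUO1 (-1.17), a J-domain protein of the ribosome, and CNS1 (-1.05). Over Guanine it was at least 2-fold higher for 14 of 34, beside 14.9%, and lower for 0, beside 8.36%. Without the ribosomal protein genes it was higher for 11, beside 7.28%, and lower for 1 (SSB2), beside 16.4%. SSA1 and HSP82 have close paralogs, SSA2 and HSC82, between which reads could be split. Of the 17 other J-domain genes, 8 had a ratio in MPA + Guanine over DMSO. With library totals 0 of these were at least 2-fold higher or lower, with APJ1 just under the limit at 0.99. Of the 3 J-domain members, SIS1 and MDJ1 were past 2-fold with library totals. Without the ribosomal protein genes none of the 3 members was past 2-fold, and JJJ1 was at least 2-fold lower. In MPA over DMSO, 2 of 7 other J-domain genes were at least 2-fold higher (ZUO1 and SCJ1) and 0 of the 3 J-domain members.

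For the members with UMIs in each library, the genes with the most similar pattern were found by the root mean square difference of log2 CPM, centred over the 4 libraries, among 1369 genes with at least 100 UMIs. HSP82 was the nearest gene to BTN2 (0.41), ahead of HRP1 (0.47) and VHC1 (0.47). VHC1 (0.39), HSP82 (0.45) and SSA4 (0.47) were nearest to HSP42, so that both of these members shared HSP82 and VHC1. HSP104 lay nearest to SIS1 (0.18), a member, and to MAD2 (0.19) and VHC1 (0.19), and SIS1 to PRY1 (0.03), MAD2 (0.06) and MIA40 (0.11). The nearest genes were YHR095W (0.18), SRL1 (0.19) and NCE102 (0.23) for CUR1, BUG1 (0.02), ADE16 (0.04) and PRE3 (0.05) for YDJ1, and EAF3 (0.09), CYS3 (0.10) and REH1 (0.11) for MDJ1. YHR095W was also 1 of 4 genes that held over 10% of the UMIs of single cells. With 4 libraries such likeness is a description of the levels alone.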

How the data were processed

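The yeastDrop-Seq reads of 4 libraries were trimmed by the authors with Trimmomatic, aligned to the R64-1-1 genome with STAR and counted per gene and cell with UMI-tools. Cells were filtered by the authors on UMIs and genes. The deposited values are raw UMI counts, 910561 UMIs over 4777 genes and 844 cells, and come with a table of SC3 labels. The strand setting of the counting was not given in the sources used here.

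CPM were computed from the sums of all cells of a library. Log2 ratios were computed without a pseudocount, with exact conditional 95% intervals. Called means at least 2-fold, and the background is all genes that reach 50 UMIs in the 4 libraries together and have UMIs in both. HSP26, with 9 UMIs, is under that minimum and had no ratio. Sums over the members and counts of members per cell took genes listed at 0 as 0, as for HSP78 in Guanine. Conditions were not tested against each other, as each had a single library. Cells were thinned once without replacement (seed 1). Doublets were treated only by an alternative without the deepest 5% of cells. The genes and lists were chosen with earlier results of these data known. The text names the 9 genes, the listed folding genes past 2-fold, and the 3 nearest genes of each member with at least 100 UMIs. Motifs were sought on both strands in 500 bases upstream of start codons. In Poisson counts simulated for MPA + Guanine over DMSO (2351 genes, 200 changed), 96.1% of intervals held the true ratio. Such counts follow the model of the intervals and hold no further spread between cells, so they check the computation only. Python 3.11.15 (numpy 2.4.6, scipy 1.17.1, pandas 2.3.3), edgeR 4.0.16 in R 4.3.3 for TMM factors only, and blastn 2.17.0+ (at least 90% identity over 50% of length) were used. Alternatives were other scalings, comparators, minimum counts, thinning depths and left-out cells. The deposited coordinates of the cells in reduced dimensions were not used here.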

Additional observations from a re-analysis of the deposited data

Results flagged for a closer look

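For 5 of 7 genes guanine gave a higher level in the presence of MPA and a lower one in its absence. This opposite direction is what singled them out, and the share of all genes that show it was not computed. A difference of at least 1 between the 2 log2 ratios was found in these 5 members, beside 13.3% of 1641 genes. The log2 ratio of MPA + Guanine over MPA minus that of Guanine over DMSO was 3.03 for BTN2, 2.98 for CUR1, 1.75 for HSP42, 1.57 for HSP104 and 1.35 for SIS1. With 1 library per condition the difference was not tested over cultures, and the guanine and the missing DMSO in the Guanine medium cannot be told apart.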

How the results depend on the processing

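Of 365 log2 ratios of single members under the alternatives, 359 kept their sign, and so did all 182 of those past 2-fold as reported. With TMM scaling the summed log2 ratio was 0.65 in MPA over DMSO, 1.33 in MPA + Guanine over DMSO and 2.55 in MPA + Guanine over Guanine, and 1 member instead of 2 was at least 2-fold higher in MPA over DMSO and 5 instead of 6 in each of the other 2. With totals without ribosomal protein genes, the summed log2 ratio was 1.26 in MPA + Guanine over DMSO, 0.46 in MPA + Guanine over MPA and 2.39 in MPA + Guanine over Guanine, with 4 members at least 2-fold higher instead of 6, 0 instead of 2 and 5 instead of 6. Against the other 3 libraries pooled, MPA had a summed log2 ratio of 0.26, a median of 0.30 and 0 members at least 2-fold higher, and Guanine a summed log2 ratio of -2.12, a median of -1.90 and 5 members at least 2-fold lower. In cells thinned to 400 UMIs, 4 members were at least 2-fold higher in MPA over DMSO. The share of all genes past 2-fold in thinned cells was not computed, so this count has no background. The summed log2 ratio of MPA + Guanine over Guanine was 2.48 in the thinned cells. Leaving out shallow cells, the deepest cells, cells with over 10% of their UMIs on 1 gene, the 3 highest cells of each gene or the cells of MG.3 (an alternative chosen after seeing the data) moved none of the reported ratios beyond its interval, although HSP78 in MPA over DMSO was under 2-fold without its 3 highest cells (0.90), and HSP42 in Guanine over DMSO without the deepest cells (-0.90). Thinning moved 29 of the 36 shares of cells with a UMI at 400 UMIs and 32 of 36 at 200 UMIs beyond their binomial intervals. Thinning only removes UMIs from a cell, so lower shares follow from the procedure and these counts do not measure robustness. The causes of the other shifts, beyond the change of totals, comparator or cells itself, were not tested.

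No paired analysis was possible because each condition had 1 library. The depth limits what can be said of HSP26 (9 UMIs in all) and of HSP78 in Guanine, and genes listed at 0 carry no ratio.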
